A study of Mus musculus with 12 samples.

Results

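The genes examined were the 10 that encode the subunits of the transcription factor NF-kB and the IkB proteins that restrain or redirect it, all present among the 43280 genes of the table, and all 10 were among the 12086 genes tested. They were found by their symbols. There were 5 subunits (Nfkb1, Nfkb2, Rel, Rela and Relb), 3 classical cytoplasmic inhibitors (Nfkbia, Nfkbib and Nfkbie) and 2 nuclear IkB proteins (Nfkbiz and Bcl3). Their mRNA was measured by poly(A) RNA-seq in bone marrow-derived macrophages (BMDM) of C57BL6 mice, which were grown from marrow with M-CSF and were wild type (wt) or lacked the receptor gene Treml4 (Treml4-/-). Cells received vehicle (M0) or lipopolysaccharide (LPS) at 100 ng/ml for 8 h (M1-8 h) or 12 h (M1-12 h). Each of the 6 conditions had 2 biological replicates, which gave 12 libraries with 48008751 to 58500792 counted reads. The labels give no age of the mice and do not say whether a culture was shared between time points. The protein activity of NF-kB, its nuclear entry and the degradation of IkB were not measured here.

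NF-kB is a dimer of Rel-family proteins that classical IkB proteins hold in the cytoplasm of resting cells. LPS acts through Tlr4 and the IKK complex to have IkB phosphorylated and degraded, after which p50-p65 and c-Rel dimers enter the nucleus and bind kB sites. A slower, non-canonical branch processes the p100 product of Nfkb2 to p52, which pairs with RelB. Several genes of the system, with Nfkbia the textbook case, are themselves NF-kB targets, so that the factor induces its own inhibitor in macrophages.

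Treml4 checked the labels. Its reads numbered 198 to 663 in the 6 wt libraries, and 0 reads were counted in each of the 6 Treml4-/- libraries. The cells carried macrophage transcripts. The 7 macrophage markers, all at or above 1 CPM (Adgre1 under its older symbol Emr1), summed to 20468 to 27537 CPM at M0 and 9712 to 12895 CPM after LPS. Fibroblast markers stayed at or below 2.51 CPM and lymphocyte markers at or below 0.521 CPM in sum, while 7 neutrophil markers summed to 43.2 to 137 CPM at M0, 67.5 to 103 CPM at M1-8 h and 46.3 to 64.8 CPM at M1-12 h, and 6 dendritic cell markers to 0.669 to 1.16 CPM at M0 and 6.96 to 11.8 CPM after LPS. Of the 6 neutrophil markers tested, 3 were called lower and 1 higher at 8 h against M0, beside 59.8% and 17.1% of all genes tested. At 12 h 5 were lower and 1 higher, beside 7284 and 1965 of the 12086 genes tested. Their median log2 change was -0.66 against -0.72 for all genes at 8 h, and -1.70 against -0.76 at 12 h. The neutrophil calls at 8 h were thus near the share of all genes. Macrophage and dendritic cell marker sums moved with LPS, and those of neutrophil markers overlapped between the times. The macrophage sum does not stand for each marker. Of the 6 tested under their listed symbols, 2 were called higher and 3 lower at 8 h, and 3 and 3 at 12 h. The shares of all genes were those given above. Only 3 dendritic cell markers were tested, and all 3 were called higher at both times. The part of these markers in the LPS results was not tested.

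The promoters of the members are shown first, since genes of this system are textbook targets of NF-kB. RefSeq windows of 250 bases before an annotated start site (GRCm38.p6) were matched for 7 of the 10 members, and Nfkb1, Relb and Nfkbiz had no entry. The windows were searched on both strands for the kB consensus, a motif of 10 letters. It was found before a start site of 4 of the 7 members, Nfkb2, Rel, Nfkbia and Nfkbie, against 3.90% of the 32851 promoters and 4.46% of the 27025 genes in the same table. No perfect match lay in the windows of Rela, Nfkbib or Bcl3. With 1 mismatch allowed the consensus was in 6 of the 7 members, against 39.6% of all promoters and 42.7% of all genes in that table. The following stretches are read 5′ to 3′ on the strand of the gene, with the bases of every perfect match in capitals. They were chosen because Nfkbia and Nfkbie were the classical inhibitors with the largest changes after LPS and Rel the subunit with the largest change at 8 h.
Nfkbia, chr12:55492648-55492897, minus strand: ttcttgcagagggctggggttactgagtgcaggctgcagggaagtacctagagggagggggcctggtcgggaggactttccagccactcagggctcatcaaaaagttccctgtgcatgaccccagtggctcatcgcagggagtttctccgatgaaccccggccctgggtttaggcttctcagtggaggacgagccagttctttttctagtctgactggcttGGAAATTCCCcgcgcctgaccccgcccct
Nfkbie, chr17:45555450-45555699, plus strand: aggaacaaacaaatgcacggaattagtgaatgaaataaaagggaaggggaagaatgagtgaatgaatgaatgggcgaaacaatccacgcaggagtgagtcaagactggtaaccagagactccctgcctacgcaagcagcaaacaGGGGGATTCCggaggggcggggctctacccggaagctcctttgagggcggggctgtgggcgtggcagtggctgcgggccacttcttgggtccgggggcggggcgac
Rel, chr11:23770971-23771219, minus strand: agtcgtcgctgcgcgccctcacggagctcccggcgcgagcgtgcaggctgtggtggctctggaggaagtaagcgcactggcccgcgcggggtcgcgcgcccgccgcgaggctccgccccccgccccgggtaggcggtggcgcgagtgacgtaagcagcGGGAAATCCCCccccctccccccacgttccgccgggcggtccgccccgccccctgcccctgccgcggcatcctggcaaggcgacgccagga
The match lay 29 bases before the start of Nfkbia, 106 bases before that of Nfkbie and 92 bases before that of Rel, where 2 overlapping matches formed a stretch of 11 bases. Nfkb2 has 3 annotated start sites, and each had a match. Before the first they were GGGAATTCCCC at 39 bases and GGGGCTTTCC at 11 bases, before the second GGAATGTCCC at 236 bases and before the third GGGACTTTCC at 225 bases. Of the 250 bases of the 3 Nfkb2 windows, 250, 167 and 234 lay in annotated exons of Nfkb2 or of AC114539.1, against 0 for Nfkbia and Nfkbie. All matches are letters found in a window, and binding was not measured.

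**Figure D1:**
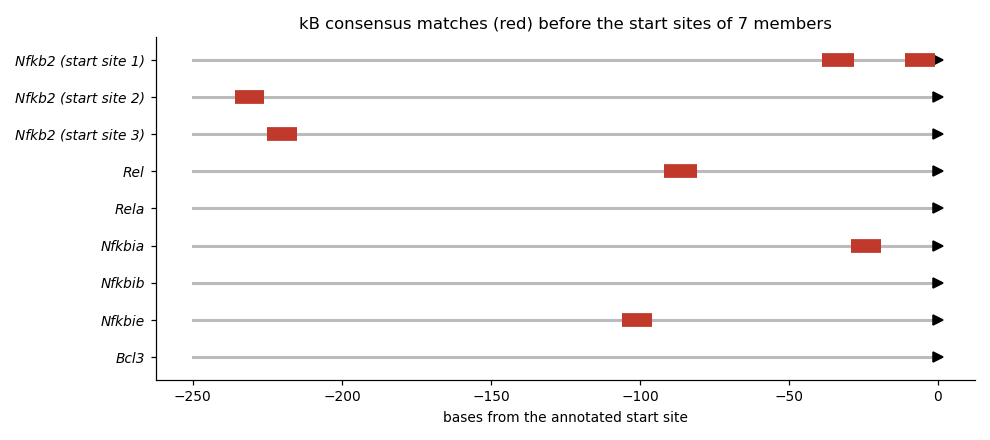
Position of perfect kB consensus matches (red) in the 250 bases before the annotated start sites (arrowheads) of the 7 members with a promoter entry. The horizontal axis gives bases from the start site. Nfkb2 is drawn for each of its 3 start sites, and Rela, Nfkbib and Bcl3 have no red mark.

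Nearly the whole system was induced by LPS. At M1-8 h, 9 of the 10 members were higher than at M0 at an adjusted p under 0.05 and a change of at least 1.4-fold, against 17.1% of all genes tested. Their log2 fold changes ran from 0.90 for Relb to 3.38 for Nfkbie, and the median of the 10 was 1.55 against -0.72 for all genes tested. At M1-12 h, 6 of the 10 were still called higher, against 16.3% of all genes, with a median of 1.11 against -0.76. Levels are in CPM, the reads of a gene scaled to a common total of counted reads, and tests are by limma on log2(CPM + 1) with both genotypes in the fit, so that each LPS comparison sets 4 libraries against 4. On this scale the change of a weakly expressed gene comes out too small.

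The scaling of the libraries bears on these LPS comparisons. On the CPM scale the median of all genes tested fell by 0.72 at M1-8 h and by 0.76 at M1-12 h on the log2 scale. Relative to those medians the members' log2 changes ran from 0.95 for Rela to 4.10 for Nfkbie at M1-8 h and from 0.77 for Rela to 3.17 for Nfkbie at M1-12 h. After median of ratios scaling, which centres the typical gene, all 10 members were called higher at both times, against 32.0% of the genes tested at 8 h and 33.5% at 12 h. Of all calls at 8 h, 22.3% were higher on the CPM scale and 50.8% after median of ratios scaling, and at 12 h 21.2% and 50.9%. Which scale reflects the mRNA per cell was not tested, and fewer cells of a type or less RNA per cell cannot be told apart in bulk RNA.

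**Figure D2:**
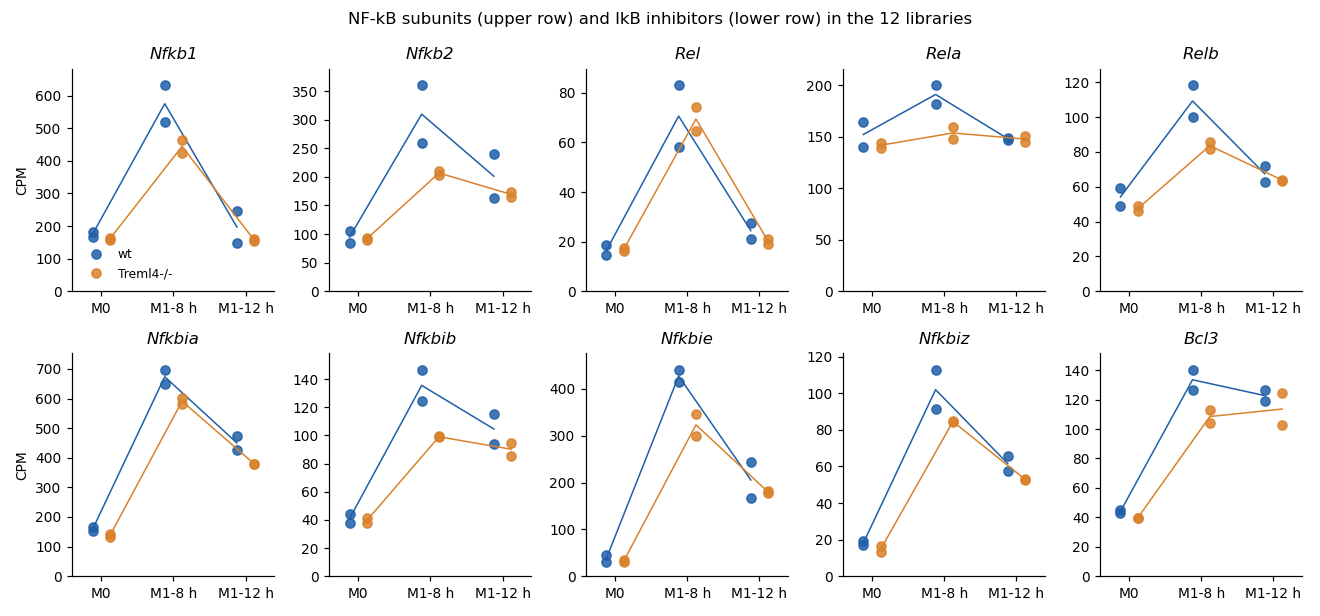
CPM of each member in all 12 libraries (vertical axis, from 0) across the 3 time points, with wt in blue and Treml4-/- in orange. Points are libraries and lines join the means of 2 libraries. Rela stays between 139 and 200.3 CPM, whereas Nfkbie moves from 30.5 to 46.0 CPM at M0 to 299.7 to 441 CPM at M1-8 h.

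Nfkbia encodes IkB alpha, the fast-resynthesized inhibitor that ends NF-kB activity in the nucleus. It lies on chromosome 12 (55489410-55492647, GRCm38, minus strand). The wt libraries held 151 and 165 CPM at M0, 697 and 651 CPM after 8 h and 426 and 474 CPM after 12 h. The Treml4-/- libraries held 131 and 143, then 602 and 581, then 379 and 379.6 CPM. All 4 libraries of each time point were thus separate from those of the other times. The rise was 4.27-fold at M1-8 h (log2 2.09, SE 0.06, adjusted p = 4.2e-11) and 2.80-fold at M1-12 h (adjusted p = 6.3e-10), and the level fell by 0.61 on the log2 scale between 8 and 12 h (adjusted p = 8.48e-06).

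Nfkbie, which encodes IkB epsilon, had the largest change of the 10. This gene is on chromosome 17 (45555703-45563169, plus strand). It started at 30.5 and 46.0 CPM in wt and 30.9 and 33.8 CPM in Treml4-/- cells. After 8 h it had reached 415 and 441 CPM in wt and 347 and 299.7 CPM in Treml4-/- cells, and after 12 h 167 and 244 against 178 and 181 CPM. The 8 h libraries were all above the 12 h libraries and these all above M0. The rise was 10.4-fold at M1-8 h (log2 3.38, SE 0.14, adjusted p = 5.1e-10) and 5.35-fold at M1-12 h (adjusted p = 7.95e-09), with a drop of 0.96 on the log2 scale in between (adjusted p = 1.07e-04).

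Nfkbib encodes IkB beta and lies on chromosome 7 (28758251-28767512, minus strand). Its level was 37.8 and 43.9 CPM in wt and 41.5 and 37.7 CPM in Treml4-/- cells at M0. It was 125 and 147 against 99.6 and 98.6 CPM at M1-8 h, and 94.1 and 115 against 85.7 and 94.7 CPM at M1-12 h. Every library after LPS was above every M0 library, while the 8 h and 12 h libraries overlapped. The log2 fold changes were 1.504 (SE 0.09, adjusted p = 1.1e-08) at M1-8 h and 1.25 (adjusted p = 5.31e-08) at M1-12 h, and the difference of -0.25 between the times did not reach 1.4-fold. An exon of Sirt2 overlaps Nfkbib on the opposite strand, and Sirt2 had 136 to 255 CPM. The libraries were strand-specific, but whether the counting used strand is not given in the sources used here, so the split of reads between both genes is uncertain.

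The nuclear IkB proteins work with NF-kB at chromatin rather than in the cytoplasm. Nfkbiz encodes IkB zeta, a co-activator needed for secondary response genes such as Il6, and lies on chromosome 16 (55811375-55838899, minus strand). It went from 17.0 and 19.3 CPM in wt and 12.98 and 16.6 CPM in Treml4-/- cells at M0 to 91.2 and 113 against 84.1 and 85.1 CPM at M1-8 h. At M1-12 h it had 57.5 and 65.7 CPM in wt and 52.6 and 53.4 CPM in Treml4-/- cells. The changes from M0 were 5.41-fold (log2 2.43, SE 0.09, adjusted p = 3.92e-10) and 3.35-fold (adjusted p = 5.94e-09), and it fell by 0.69 on the log2 scale between 8 and 12 h (adjusted p = 8.66e-05).

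Bcl3 encodes a partner of p50 and p52 homodimers. It lies on chromosome 7 (19808462-19822770, minus strand). It had 42.8 and 44.9 CPM in wt and 39.4 and 39.7 CPM in Treml4-/- cells at M0, then 140.1 and 127 against 104 and 113 CPM at M1-8 h, and 127 and 119 against 103 and 124 CPM at M1-12 h. Every library after LPS was above every M0 library, and the 8 h and 12 h libraries overlapped. The log2 fold change was 1.51 (SE 0.07, adjusted p = 2.18e-09) at M1-8 h and 1.48 (adjusted p = 2.43e-09) at M1-12 h. Between the times it was -0.03 (95% confidence interval -0.19 to 0.13, adjusted p = 0.747) and turned to 0.021 after median of ratios scaling and to 0.057 after quantile normalization.

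Among the subunits, Rel and Nfkb1 had a pulse. Rel encodes c-Rel, an activating subunit needed for Il12b, and lies on chromosome 11 (23736847-23770970, minus strand). The wt libraries held 18.6 and 14.5 CPM at M0, 58.1 and 83.2 CPM after 8 h and 21.2 and 27.6 CPM after 12 h. For Treml4-/- these were 16.2 and 17.6, then 64.5 and 74.4, then 21.2 and 19.1 CPM. The 8 h libraries were well above all others, and the 12 h libraries only just above M0. Rel rose 3.99-fold at M1-8 h (log2 2.00, SE 0.13, adjusted p = 2.83e-08) and fell by 1.61 on the log2 scale by M1-12 h (adjusted p = 1.51e-06). Against M0 the 12 h difference was 0.39 (adjusted p = 0.0135), below 1.4-fold with CPM and past it after either median of ratios (1.19) or quantile (1.26) normalization.

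Nfkb1 encodes p105, the precursor of p50, and lies on chromosome 3 (135584655-135691547, minus strand). It had 168 and 182 CPM in wt and 159 and 163 CPM in Treml4-/- cells at M0, and 518 and 633 against 465 and 424 CPM at M1-8 h. By M1-12 h it was at 149 and 245 CPM in wt and 159.7 and 154 CPM in Treml4-/- cells, with 1 library, wt replicate 2, above the range of M0 and the others within or just below it. The gain on the log2 scale was 1.58 at M1-8 h (SE 0.13, adjusted p = 2.46e-07), and it was lower by 1.54 on the log2 scale at M1-12 h than at M1-8 h (adjusted p = 2.26e-06). The 12 h difference from M0 was 0.05 (95% confidence interval -0.24 to 0.33), -0.13 without that wt library and 0.89, a call, after median of ratios scaling.

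Nfkb2 encodes p100, both a subunit precursor and an IkB-like inhibitor, and lies on chromosome 19 (46304320-46312385, plus strand). The study named Nfkb2 and Relb from these same libraries at 8 h, so their values between genotypes are not independent evidence. It had 84.2 and 105 CPM in wt and 93.1 and 90.4 CPM in Treml4-/- cells at M0, and 259 and 360.4 against 211 and 203 CPM at M1-8 h. At M1-12 h the values were 163 and 239.6 CPM in wt and 164 and 174 CPM in Treml4-/- cells. All LPS libraries were above all M0 libraries. Nfkb2 rose by 1.43 (SE 0.13, adjusted p = 6.95e-07) at M1-8 h and 0.97 (adjusted p = 2.17e-05) at M1-12 h on the log2 scale. The difference of -0.46 between the times did not reach 1.4-fold, but did so without wt M1-8 h replicate 1 (-0.58) or without wt M1-12 h replicate 2 (-0.60).

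Relb encodes the partner of p52 in the non-canonical branch and lies on chromosome 7 (19606217-19629438, minus strand). It had 48.9 and 59.4 CPM in wt and 46.1 and 48.8 CPM in Treml4-/- cells at M0, 100.2 and 118 against 85.5 and 81.8 CPM at M1-8 h, and 62.9 and 72.1 against 63.6 and 64.2 CPM at M1-12 h. The groups of the 3 times did not overlap. Its rise of 0.90 (SE 0.08, adjusted p = 6.04e-07) at M1-8 h was the smallest of the 9 called. At M1-12 h the difference from M0 was 0.37 (adjusted p = 0.00113), below 1.4-fold with CPM and above it after either median of ratios (1.20) or quantile (0.86) normalization. Relb fell by 0.53 on the log2 scale between 8 and 12 h (adjusted p = 1.9e-04), a call that was lost without wt M1-8 h replicate 2 (-0.47) and with quantile normalization (-0.43).

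Rela encodes p65, the main activating subunit of the canonical dimer, and lies on chromosome 19 (5637483-5648130, plus strand). The wt libraries held 141 and 164 CPM at M0, 182 and 200.3 CPM after 8 h and 147 and 149 CPM after 12 h. For Treml4-/- these were 144 and 139, then 159.8 and 148, then 145.01 and 151 CPM. The ranges of the 3 times overlapped. Rela differed from M0 by 0.22 at M1-8 h (SE 0.06, adjusted p = 0.00705), below 1.4-fold, and by 0.012 at 12 h (95% confidence interval -0.13 to 0.16, adjusted p = 0.863). After median of ratios scaling its log2 changes were 1.02 and 0.86, both called.

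**Figure D3:**
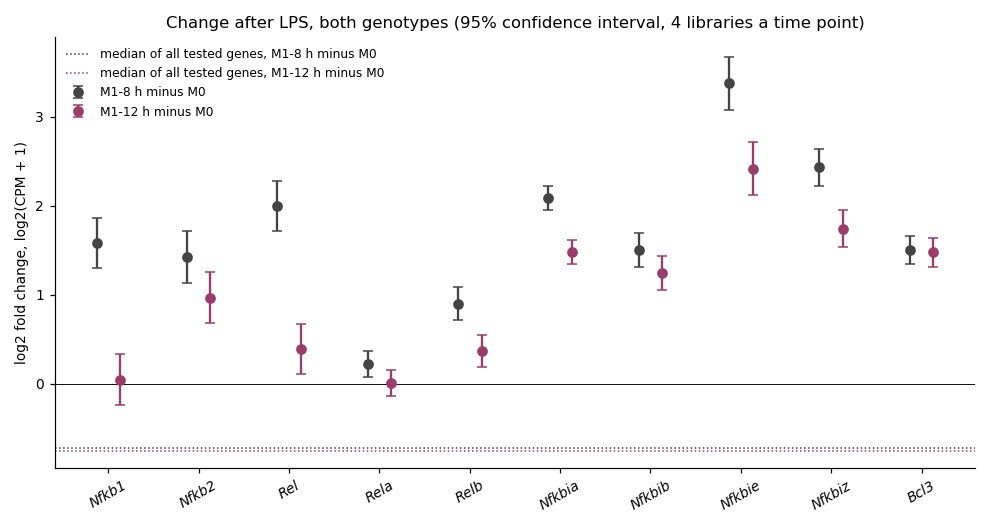
Log2 fold change of each member (vertical axis, on log2(CPM + 1)) at M1-8 h (dark) and M1-12 h (purple) against M0, with both genotypes together and 95% confidence intervals from limma. Dotted lines mark the median of all genes tested, -0.72 and -0.76, and every member lies above them. Nfkb1 and Rel drop most from 8 to 12 h, and Bcl3 differs by -0.03. After median of ratios scaling all 10 are called higher at both times, and the small Bcl3 difference turns to 0.021.

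From 8 to 12 h, 6 of the 10 members were called lower, against 18.7% of all genes, and 0 were called higher. They were Rel, Nfkb1 and Relb among the subunits and Nfkbie, Nfkbiz and Nfkbia among the inhibitors. The median of the 10 was -0.57 against -0.06 for all genes tested. The count stayed between 5 and 7 with each library left out in turn.

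In each genotype taken alone, 9 members, all but Rela, were called higher at 8 h. The background was 16.3% of genes in wt and 17.7% in Treml4-/- cells. At 12 h, 7 members were called higher in wt, against 16.2% of genes, and 6 in Treml4-/- cells, against 16.1%. The one that differed was Rel, at 0.54 in wt and 0.24 in Treml4-/- cells. The test of that difference gave 0.29 (SE 0.26, adjusted p = 0.999).

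Compared per length, as CPM per kilobase of merged exons (GENCODE M21), Nfkbia was the most abundant member at each time. Its level per kilobase was 81.3 to 102 at M0, 361 to 433 at M1-8 h and 235 to 295 at M1-12 h, in each case above every other member in all 4 libraries. At M0 the next was Rela with a level of 45.3 to 53.4, separate from Nfkb2 at 18.4 to 22.9. Nfkb2, Nfkbib and Bcl3 followed with overlapping ranges. Nfkb1, Relb and Nfkbie came after them at M0, also with overlapping ranges, so that their order was not resolved. Nfkbie, eighth by its mean at M0 with 10.0 to 15.1 per kilobase, was second at M1-8 h, at 98.4 to 144.7. It stayed second at M1-12 h, at 54.8 to 80.2. Rel was last at each time, at 1.94 to 2.49 per kilobase at M0 and 7.78 to 11.1 at M1-8 h, and Nfkbiz next to last. From the third to the seventh place at M1-8 h, Nfkb2, Rela, Nfkbib, Bcl3 and Nfkb1 each overlapped the next, as did Relb and Nfkbiz below them, so that these orders were within the spread of the libraries. At M1-12 h the same held from Rela over Bcl3 and Nfkbib to Nfkb2, and from Relb over Nfkb1 to Nfkbiz. The place of Nfkb1 depends on the length used, since its level at M1-8 h was 42.3 per kilobase of merged exons and 123 per kilobase of its longest transcript. Per longest transcript Nfkbia was still on top and Rel last at each time, but the second place of Nfkbie was not resolved, since its 99.7 to 147 overlapped the 102 to 153 of Nfkb1 at M1-8 h and its 55.5 to 81.2 the 55.6 to 68.5 of Bcl3 at M1-12 h.

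In sum over the roles, the 3 classical inhibitors had 1.17 to 1.30 times the level per kilobase of the 5 subunits at M0, 2.59 to 3.26 times at M1-8 h and 2.85 to 3.16 times at M1-12 h. The ratio is taken within each library and so does not depend on its scaling, but it depends on the length. Per longest transcript it was 0.860 to 0.945 at M0, 1.72 to 2.15 at M1-8 h and 2.17 to 2.403 at M1-12 h, so that which sum was larger at M0 turned with the length. With either length all 8 LPS libraries were above all 4 M0 libraries. Per merged exons, Rela made up 19.5 to 21.0% of the summed level of the 10 members at M0 and 6.62 to 7.02% at M1-8 h. Nfkbie made up 4.26 to 5.63% and then 13.6 to 15.6%. These are shares of mRNA, and protein was not measured.

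**Figure D4:**
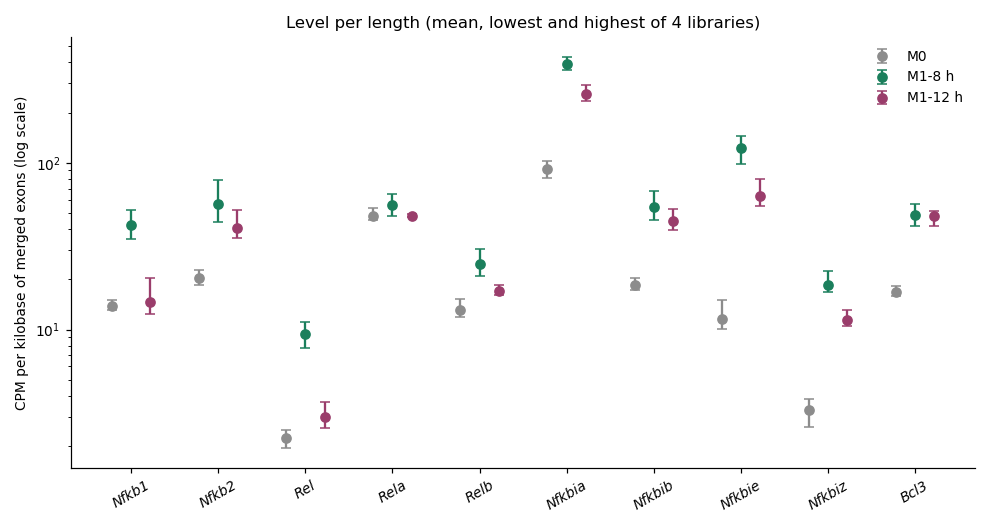
Level of each member as CPM per kilobase of merged exons (vertical axis, log scale) at M0 (grey), M1-8 h (green) and M1-12 h (purple). Points are means of 4 libraries, both genotypes together, and bars run from the lowest to the highest library. Nfkbia is on top at each time and Rel at the bottom.

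Whether the loss of Treml4 changed the system was asked at each time point. At M1-8 h all 10 members had a higher mean in wt than in Treml4-/- cells, and in 9 of the 10, all but Rel, both wt libraries were above both Treml4-/- libraries, a pattern shown by 18.0% of all genes tested. None of the 10 passed the test at M1-8 h (limma, adjusted p from 0.155 to 0.990), where 0.0910% of all genes were called, and 5 of the 10 had an unadjusted p under 0.05 against 21.0% of all genes. The median of the 10 was 0.34 (range 0.0048 to 0.56) against -0.07 for all genes. Of the inhibitors, Nfkbib was higher in wt by 0.44 (95% confidence interval 0.17 to 0.71, adjusted p = 0.155), Nfkbie by 0.41 (-0.02 to 0.83), Bcl3 by 0.30 (0.07 to 0.52), Nfkbiz by 0.26 (-0.03 to 0.55) and Nfkbia by 0.19 (-0.0034 to 0.38). Among the subunits, Nfkb2 had the largest difference, 0.56 (0.15 to 0.97, adjusted p = 0.173). It was followed by Relb at 0.38 (0.12 to 0.63), Nfkb1 at 0.37 (-0.04 to 0.77) and Rela at 0.31 (0.11 to 0.51). Rel was at 0.0048 (-0.40 to 0.41, adjusted p = 0.990). Nfkb2 and Relb, which the study reported as differentially expressed at this time with DESeq2, were thus not called by limma here. The limma fit called only 11 of the 12086 genes tested at M1-8 h, so the missing calls do not single out Nfkb2 and Relb. Nfkb2 passed the fold threshold at 1.48-fold and missed the adjusted p. Relb, at 1.30-fold (adjusted p = 0.165, limma), missed both. The part of the test method in these missing calls was not tested.

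The library wt M1-8 h replicate 2 had the highest 8 h value for 8 of the members, all but Nfkbia and Bcl3. Without it the median difference of the 10 was 0.25, 9 remained positive and Rel was at -0.25. Without Treml4-/- M1-8 h replicate 1 the median was 0.39 and Rel was at -0.096. After median of ratios scaling all 10 were positive, with a median of 0.47. In sum, neutrophil markers were lower in wt at this time, at 67.5 to 71.1 CPM against 79.2 to 103 CPM in Treml4-/- cells, where Ly6g was at 0 reads. Of the 6 tested, 4 were lower and 2 higher in wt. The macrophage markers were higher in wt in sum, at 11454 to 12895 CPM against 9951 to 10570 CPM. Of the 6 tested under their listed symbols, 4 were higher and 2 lower in wt (log2 differences of -0.18 to 0.47). Dendritic cell markers overlapped, at 7.49 to 11.05 against 7.95 to 10.3 CPM. The part of these markers in the result was not tested.

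At M0, 9 of the 10 members had a positive wt minus Treml4-/- difference, with a median of 0.13 and a range of -0.04 for Rel to 0.29 for Nfkbiz. The libraries did not overlap for 5 of them, Nfkb1, Relb, Nfkbia, Nfkbiz and Bcl3, against 10.8% of all genes. None passed the test (adjusted p = 1 for each, limma), where 0.0993% of genes were called, and 1 of the 10, Nfkbia, had an unadjusted p under 0.05 against 3.35% of all genes. Without wt M0 replicate 2 the median was 0.052 and 4 of the 10 were negative. In sum, the neutrophil markers of M0 ranged from 43.2 to 116 CPM in wt and from 109 to 137 CPM in Treml4-/- cells, and the macrophage markers from 22962 to 27537 CPM and from 20468 to 20694 CPM. All 6 neutrophil markers tested had a negative wt minus Treml4-/- difference. Of the 6 macrophage markers tested under their listed symbols, 4 were positive and 2 negative. The part of these markers was not tested either.

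At M1-12 h all 10 differences were positive, with a median of 0.21 and a range of 0.0042 for Rela to 0.28 for Nfkb1. Both wt libraries were above both Treml4-/- libraries for 3 members, Rel, Nfkbia and Nfkbiz, against 12.3% of genes. None passed the test (adjusted p from 0.502 to 0.996, limma), where 0.132% of genes were called, and 1 of the 10, again Nfkbia, had an unadjusted p under 0.05 against 7.55% of all genes. Without wt M1-12 h replicate 2 the median was 0.029 and 5 of the 10 turned negative, so that the direction at this time rested on that library. Without Treml4-/- M1-12 h replicate 1 the median was 0.17 and 2 were negative.

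**Figure D5:**
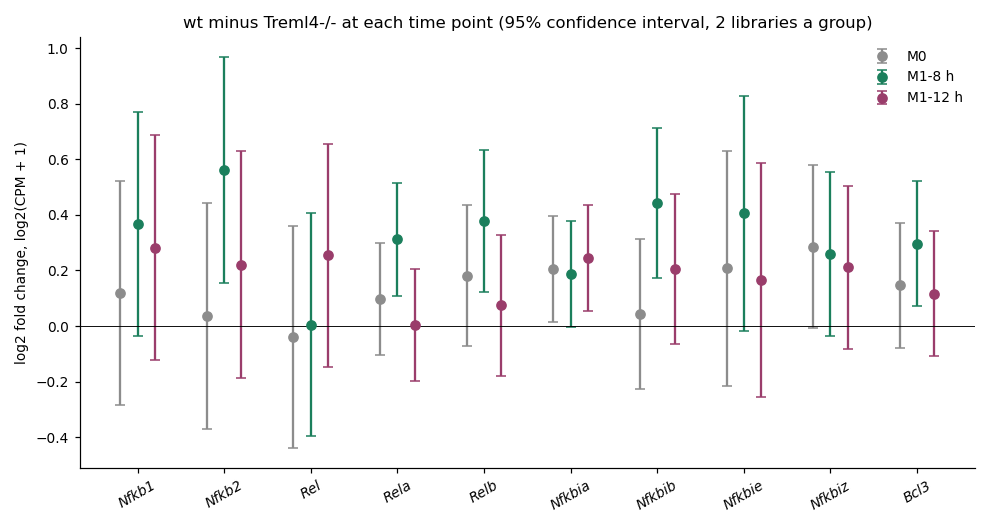
Log2 difference of wt minus Treml4-/- (vertical axis, on log2(CPM + 1)) for each member at the 3 time points (M0 grey, M1-8 h green, M1-12 h purple), with 95% confidence intervals from limma and 2 libraries per group. All 10 values at M1-8 h are above 0, from 0.0048 for Rel to 0.56 for Nfkb2, and none passed the adjusted threshold at any time.

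Averaged over the 3 time points, a contrast chosen after seeing the data, all 10 differences were positive, from 0.07 for Rel to 0.27 for Nfkb2 with a median of 0.22. The lowest adjusted p was that of Nfkbia (0.21, SE 0.05, adjusted p = 0.0822, limma). None was called (limma), against 0.414% of genes, while 9 of the 10 had an unadjusted p under 0.05 against 20.1% of genes. This fit treated the libraries of a genotype as independent. The labels do not say whether a replicate supplied all 3 time points. If it did, the standard errors and p-values of this mean are too small.

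The LPS response did not differ detectably between the genotypes in any member. None was called for the response at 8 h or at 12 h, where 0.00827% of genes, 1 gene in each case, were called. At an unadjusted p under 0.05 there was 1 member at 8 h, against 6.67% of all genes, and none at 12 h, against 3.82%. The difference between the responses at 8 h was largest for Nfkb2, 0.53 (95% confidence interval -0.05 to 1.10, adjusted p = 0.736, limma), and then for Nfkbib, 0.40 (0.02 to 0.78, adjusted p = 0.729). For Nfkbia it was -0.02 (-0.29 to 0.25), for Rel 0.04 (-0.52 to 0.61) and for Nfkbiz -0.03 (-0.44 to 0.39).

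The genes around the members moved in more mixed ways. At M1-8 h 17.1% of all genes were called higher and 59.8% lower. Of the 10 genes of the IKK complex and the kinases upstream of IkB, 3 were called higher and 4 lower, and their median was -0.06. Tbk1, a kinase of the interferon branch, rose by 1.21 on the log2 scale. Tab1 and Map3k14 fell, by 1.99 and 1.28, the first a partner of the kinase TAK1 and the second NIK, the kinase of the non-canonical branch. Relative to the median of all genes these last changes were -1.26 and -0.56.

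Of the 5 genes of the ubiquitin ligase that turns over IkB, Fbxw11 was called higher (0.63) and Cul1 lower (-0.54) at M1-8 h. The shares of all genes were the same 17.1% and 59.8%. Relative to the median of all genes Cul1 was at 0.19, so that its direction depends on the scale. Fbxw11 encodes a form of beta-TrCP, which recognizes phosphorylated IkB, and Cul1 the scaffold of the ligase. The remaining 3 genes were not called.

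Of 11 other brakes on NF-kB, 5 were called higher and 4 lower at M1-8 h, beside the same 17.1% and 59.8% of all genes. Tnfaip3, which encodes the deubiquitinase A20, rose from 44.4 to 893 CPM on average (log2 4.30, SE 0.08). Otulin, which removes linear ubiquitin chains, fell by 2.43 on the log2 scale, and Pdlim2, which helps to degrade nuclear p65, fell by 2.32. Relative to the median of all genes these were -1.70 and -1.60.

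Of 20 textbook NF-kB targets, 19 were called higher at both M1-8 h and M1-12 h, beside 17.1% and 16.3% of all genes. Their medians were 4.04 and 4.02 on the log2 scale, against -0.72 and -0.76 for all genes. The largest changes at 8 h were those of Nos2 (11.5), which encodes inducible nitric oxide synthase, Ptgs2 (10.4), which encodes cyclooxygenase 2, and Ccl5 (9.93), a chemokine. At M1-12 h they were at 11.4, 10.1 and 10.5. The remaining gene, Tnfaip2, was at -0.31 at 8 h, without a call, and was called lower at 12 h (-0.61), although relative to the median of all genes it was at 0.14. None of these 4 lists held a gene called between genotypes at any of the 3 time points, against the background shares given for the members. At M1-8 h the targets had a median wt minus Treml4-/- difference of 0.11 and the IKK list one of -0.21. The members stayed closer to baseline than the targets, with a median of 1.55 against 4.04 at M1-8 h, a description without a test.

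Over the 12 libraries, the member whose pattern was most like that of another was Nfkbiz, with Pearson's r of 0.995 to Nfkbia on log2(CPM + 1). Nfkbia and Nfkbie had r = 0.995 and Nfkbie and Nfkbiz r = 0.994, whereas the lowest value between members was 0.448, for Rela and Bcl3. Among all genes tested, the 2 most like Nfkbia were Nlrp3 and Rhbdf2 (r = 0.998 for both). For Nfkbie they were Rab11fip1 (0.997) and Bcl2a1d (0.996), for Nfkbib Ifitm2 (0.996) and Adora2a (0.993) and for Bcl3 Arap1 (0.993) and Mafk (0.993). Nfkbiz was most like Rab11fip1 (0.995), followed by Nfkbia. Of the subunits, Rel was most like Eml6 (0.994) and Gm20645 (0.991), Nfkb1 like Syf2 (0.992) and Otud5 (0.989), Nfkb2 like Eva1b (0.988) and Alpk2 (0.988) and Relb like Vasp (0.987) and Itgal (0.986). The closest genes to Rela, Cmtm3 and Fbxo6, reached 0.953 and 0.929. These values describe 12 libraries that share 3 time points.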

How the data were processed

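RNA of 12 BMDM libraries was sequenced with a stranded poly(A) protocol. The authors aligned reads with STAR to mm10, counted them on genes with Subread and deposited log2 CPM, in which 0.25 reads had been added to each count. The annotation and the use of strand in counting are not given in the sources used here. Taking these reads away from the deposited log2 values gave whole reads for 100% of values (tolerance 0.1 read), and CPM were computed from them. Libraries held 48008751 to 58500792 reads, and 1 read was worth 0.0171 to 0.0208 CPM.

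Of 43280 genes, the 12086 that reached 1 CPM in 2 or more libraries entered the test. limma (version 3.58.1, R 4.3.3) was fitted to log2(CPM + 1), a mean for each of the 6 conditions, a trend in the prior variance and Benjamini-Hochberg adjustment over all genes tested. A gene was called at an adjusted p under 0.05 and a change of at least 1.4-fold, the thresholds of the study. P-values are two-sided and rest on 2 biological replicates per condition. Lengths and gene positions came from GENCODE M21 (GRCm38), promoters from RefSeq windows (GRCm38.p6). Python 3.11.15, pandas 2.3.3, numpy 2.4.6 and matplotlib 3.10.9 were used for the tables and figures. The comparison of LPS at 8 h with M0 was checked on simulated counts with known changes. In that simulation a small set of genes was raised and no other gene changed. It therefore does not bear on the fall of most genes after LPS or on the choice of scaling. The genotype comparisons, with 2 libraries per group, were not checked in this way.

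The members and all lists were chosen with earlier results of these data known. All 10 members are named, of each other list the 3 largest changes among the genes called at M1-8 h (fewer where fewer were called), and for each member the 2 genes most like it. Tnfaip2 was named after its values were seen. Alternatives were another pseudocount, the deposited log2 values, other filters, median of ratios scaling, quantile normalization, replicate blocks, voom, only the libraries compared, no minimum fold, each library left out, the longest transcript as length and 1 mismatch in the motif.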

Additional observations from a re-analysis of the deposited data

How the results depend on the processing

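The count of members called was within 1.5 times its value in the report in 202 combinations of a comparison and an alternative and moved in 1. This was LPS at 12 h against M0, with 10 called instead of 6 after median of ratios scaling, which shifted the median of all genes by 0.76. In the genotype comparisons the count was 0 in every setting, so that the ratio has a meaning only for the LPS comparisons. Without a minimum fold change, 9 members instead of 6 were called lower between 8 and 12 h, which still counts as within 1.5 times. Leaving out each library in turn gave 9 to 9 members at 8 h, 6 to 6 at 12 h, 5 to 7 between 8 and 12 h and 0 to 0 between genotypes. Some small differences changed sign. Bcl3 between 8 and 12 h came to 0.021 after median of ratios scaling and 0.057 after quantile normalization, and ran from -0.097 to 0.038 with libraries left out. Rela at 12 h then ran from -0.043 to 0.067, Nfkb1 at 12 h from -0.13 to 0.23 and Rel between genotypes at 8 h from -0.25 to 0.26. The cause was not tested. The counts of all genes called between genotypes, none of them members, moved more with 1 library out. They went from 11 to 598 at M1-8 h without Treml4-/- M1-8 h replicate 1, from 16 to 79 at M1-12 h without wt M1-12 h replicate 1 and, without wt M0 replicate 1, from 12 to 219 at M0, from 50 to 183 for the mean of the times and from 1 to 33 for the response at 12 h. With other libraries out the lowest counts were 7 at M0, 8 at M1-8 h, 6 at M1-12 h and 20 for the mean of the times. For the mean of the 3 time points the lowest adjusted p of a member was 0.0354 after median of ratios scaling and 0.0237 to 0.274 with libraries left out, under the threshold without wt M1-12 h replicate 1 (0.0237) and without wt M0 replicate 1 (0.0256). No member reached 1.4-fold in these. These fits, too, treated the libraries of a genotype as independent.

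Replicate numbers recur in the groups but were not shown to pair the samples. Between genotypes, the difference of the replicates correlated across genes by -0.264 (M0), 0.297 (M1-8 h) and 0.0563 (M1-12 h). Within a genotype it ran from -0.272 to 0.462 between time points, and not every pair was above 0.1. With the replicate block 9 members were called at 8 h, 6 at 12 h, 6 between 8 and 12 h and 0 between genotypes, and the lowest adjusted p between genotypes at M1-8 h was 0.139. With the block set within each genotype, the counts for LPS were also 9, 6 and 6. Voom called the same numbers of members in these comparisons. Depth does not limit the members, which lie far above 3 reads, but the replicates do, with standard errors of 0.0866 to 0.191 for a genotype difference at 1 time point.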
